A study of Mus musculus with 15 samples.

Results

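The ventral striatum of 4 female *Fmr1* KO mice was compared with that of 4 female WT mice. These 8 mice were chosen by sex from the 15 mice with deposited values, and the 7 males among them took no part in the test. Of the 24982 gene symbols in the expression table, the 15261 with a mean regularized log (rlog) value of at least 3 over all 15 mice were compared. The rlog value is the authors' log2 expression value after correction for library size, and it is drawn toward the gene's mean where reads are few.

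All 8 mice were C57BL6/J females aged 2 to 3 months, and their tissue was taken after a series of behavioral tests with both hemispheres pooled for each mouse. The *Fmr1* KO females had no intact copy of *Fmr1*, since the line was kept by mating hemizygous males with homozygous females. The WT females were of the same strain but were not littermates, so genotype and origin of the line cannot be told apart. The loss is present from conception in every cell, which makes the mouse a model of absent protein rather than of the mosaic silencing found in women with the human mutation. *Fmr1* lies on the X chromosome, and its product FMRP binds mRNA in neurons and holds back translation, above all of long mRNAs for synaptic proteins. The ventral striatum, which includes the nucleus accumbens, joins dopamine signals on reward with input from cortex, amygdala and hippocampus. Most of its neurons are GABAergic striatal projection neurons (SPNs), divided into a direct pathway with the dopamine receptor *Drd1* and an indirect pathway with *Drd2* and *Adora2a*.

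The 8 profiles were alike, with correlations across genes of 0.996 to 0.999 between WT mice, 0.992 to 0.998 between *Fmr1* KO mice and 0.991 to 0.998 between the groups. In all 8 mice *Xist*, the RNA that silences an X chromosome, lay at 13.04 to 14.36, against 8.47 to 8.58 in the males of the series. The Y-linked *Ddx3y* lay at 6.67 to 6.90 in the females and at 10.09 to 10.47 in the males. Rlog draws a gene toward its own mean over the 15 mice, which was 8.43 for *Ddx3y*. A value of this size does not by itself show that the gene was read. SPN markers were abundant in every mouse, with a mean over the 18 markers shared by both pathways of 12.8 to 13.5 in WT and 12.2 to 13.0 in *Fmr1* KO mice. The first principal component held 64.9% of the variance of the 1000 most variable genes. On it WT female 1 (-3.68), *Fmr1* KO female 1 (-12.9) and *Fmr1* KO female 3 (-19.6) stood apart from the other 5 mice (3.32 to 10.5). Marker scores, the mean deviation of a list's genes from their 8-mouse means, separated the same 3 mice. Their SPN scores were -0.23, -0.32 and -0.79 against 0.02 to 0.46 in the others, and their scores for markers of thalamus and hypothalamus were 0.26, 0.41 and 1.15 against -0.46 to -0.25. The depth of the libraries is unknown from rlog values, so precision rests on the spread between mice, which is all that the p-values measure.

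Of the 15261 genes, 2 passed an adjusted p of 0.05 in the limma fit, which is 0.0131%, and both fell in *Fmr1* KO females. They were *Fmr1* and *Mid1*. Without adjustment, 1210 genes (7.93%) were lower and 999 (6.55%) higher at p under 0.05. In 594 genes (3.89%) every *Fmr1* KO female was below every WT female, and in 548 (3.59%) every one was above, together 7.48% of the genes. The log2 fold change was below 0 in 48.8% of genes and its median was 0.0028. It reached 0.5 in size in 200 genes, of which 113 were lower and 87 higher. The number of called genes rested on single mice. It was 37 without WT female 1 (21 lower and 16 higher) and 1 without WT female 4. It was 0 without *Fmr1* KO female 1, 2 or 3 and without either of WT females 2 and 3, where 1201, 1334, 885, 783 and 1093 genes were lower and 884, 1266, 692, 566 and 816 higher with an unadjusted p under 0.05. Without *Fmr1* KO female 4 it was 2. With WT female 1 and *Fmr1* KO female 3 both left out, an alternative chosen after seeing the data, it was 127, of which 98 were lower and 29 higher. Apart from *Fmr1* and *Mid1*, every difference given here is a difference between group means that did not pass the adjusted threshold. The study's own comparison of females, with DESeq2 on read counts, reported more genes in both directions at a false discovery rate under 0.05. That is another measure and another test than limma on rlog values.

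*Fmr1* (chrX:68678541-68717963, GRCm38) had rlog values of 10.62, 10.74, 10.83 and 10.81 in WT females 1 to 4. In *Fmr1* KO females 1 to 4 it had 9.82, 10.00, 9.87 and 10.08. The groups did not overlap, and the spread within each (SD 0.10 in WT and 0.12 in *Fmr1* KO females) was small beside the distance between them. *Fmr1* fell by 0.81 on the log2 scale (SE 0.07, adjusted p = 0.0208 with limma). An exact permutation test of the same values, 2-sided over the 70 arrangements of 4 against 4 mice, gave p = 0.0286, the smallest it can give. The adjusted p in limma was 0.0608 to 0.165 when any mouse other than WT female 1 and *Fmr1* KO female 4 was left out, and the log2 fold change stayed between -0.85 and -0.77. The rlog values do not show how many reads of the gene remained in the knockout, or from which part of it. In striatum, the study found *Fmr1* mRNA very low but detectable by qPCR and FMRP undetectable by Western blot. The RefSeq table (GRCm38.p6) gives 2 start sites of *Fmr1*. The 250 bases before the first (chrX:68678291-68678540, plus strand), of which 67.2% are G or C, are shown because this promoter belongs to the gene that differs by design. Capitals mark a palindrome bound by the activator NRF1 (searched on both strands as GCGCA and GCGC with any 1 base between, found in 4.60% of 32851 promoters) and an E-box (CACGTG, found in 7.15%).
Fmr1: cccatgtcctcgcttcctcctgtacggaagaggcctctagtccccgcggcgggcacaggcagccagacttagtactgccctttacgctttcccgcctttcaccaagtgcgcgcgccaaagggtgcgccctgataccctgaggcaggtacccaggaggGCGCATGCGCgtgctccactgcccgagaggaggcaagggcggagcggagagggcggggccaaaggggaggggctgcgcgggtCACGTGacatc
A match of letters describes the sequence and does not show binding in this tissue.

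*Mid1* (chrX:169685199-170005736) encodes midline-1, a ubiquitin ligase on microtubules that targets the phosphatase PP2A and that in the laboratory mouse spans the boundary of the pseudoautosomal region. Its rlog values were 7.02, 7.05, 6.97 and 7.39 in WT females and 6.25, 6.23, 6.23 and 6.09 in *Fmr1* KO females. The groups lay far apart, and the *Fmr1* KO values were the tighter ones, with an SD of 0.07 against 0.19. *Mid1* fell by 0.91 on the log2 scale (SE 0.09, adjusted p = 0.0391 with limma). The call was lost when WT female 2 or 3 or any of the *Fmr1* KO females was left out, with adjusted p values in limma of 0.112 to 0.201, while the log2 fold change stayed between -0.95 and -0.81 over all single omissions. Of the 8 other listed partners and relatives of midline-1, none reached an unadjusted p of 0.05, and the median of the list of 9 was -0.02.

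*Prg4* (chr1:150449412-150466165), which encodes the secreted lubricating proteoglycan lubricin, was the third gene in the order of p. It had 5.48, 5.30, 5.27 and 5.23 in WT females and 6.30, 6.44, 6.21 and 5.95 in *Fmr1* KO females. Every *Fmr1* KO female exceeded every WT female by a wide margin, yet the log2 fold change of 0.90 (SE 0.10) had an adjusted p of 0.0569 in limma. Without *Fmr1* KO female 4 or without WT female 1 it passed, with adjusted p values in limma of 0.0157 and 0.0236. In the males of the series the difference of the means was -0.01. The next adjusted p in limma after these 3 genes was 0.116.

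**Figure D1:**
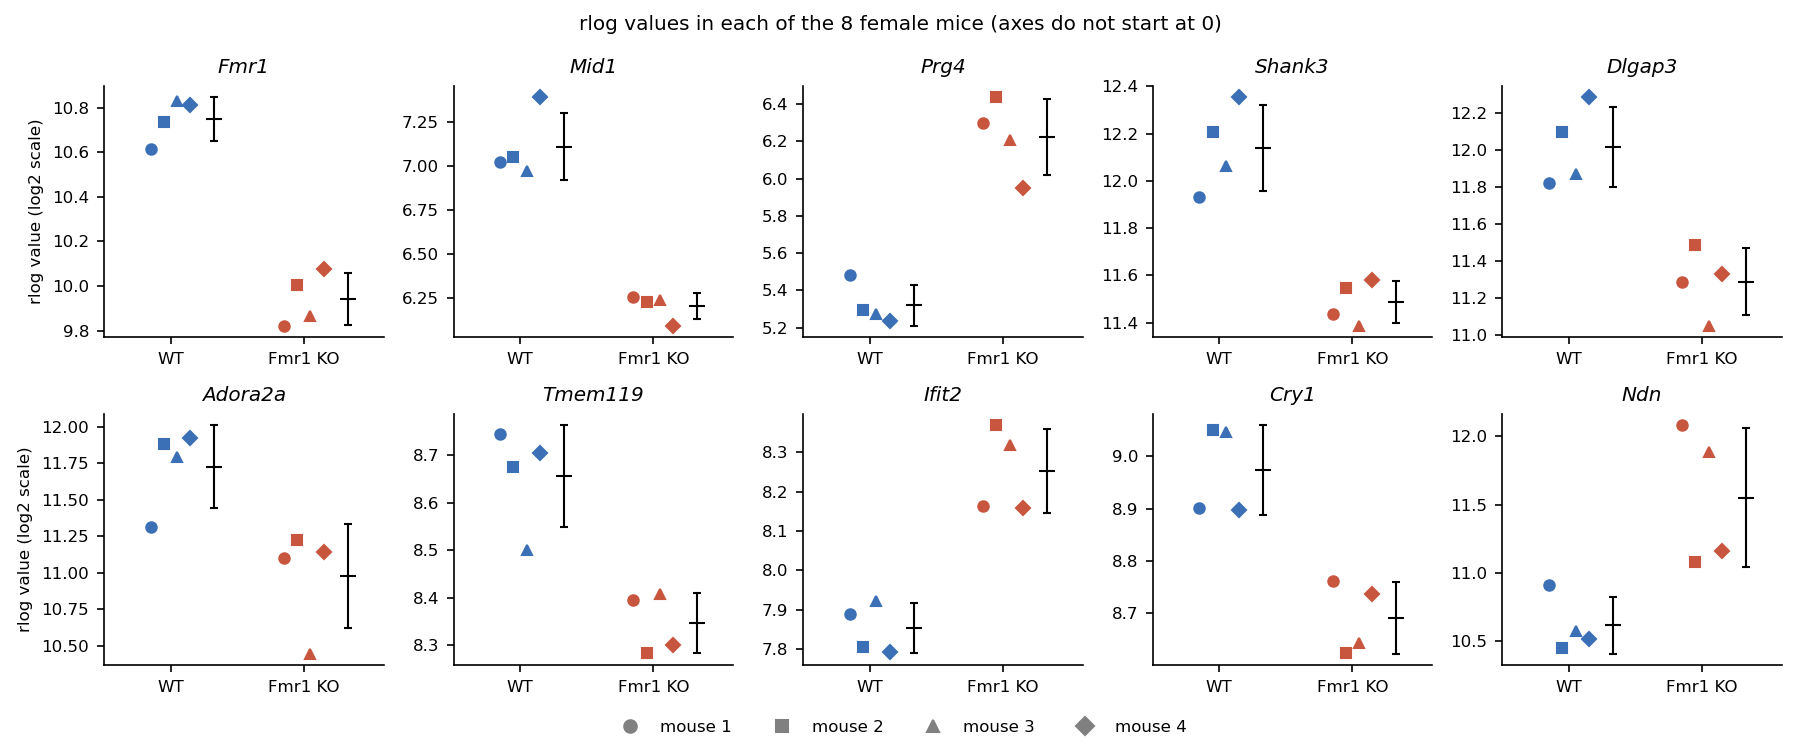
rlog values (log2 scale, axes not starting at 0) of 10 genes in WT (blue) and *Fmr1* KO (red) females, with marker shape giving the mouse number within its group and bars the mean ± SD of 4 mice. The groups do not overlap in any of the 10 genes, while *Fmr1* KO female 3 is lowest in *Adora2a* (10.45) and *Fmr1* KO females 1 and 3 are highest in *Ndn* (12.08 and 11.88).

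The genes around *Fmr1* were examined for their own differences. Within 5 Mb there were 34 other tested genes, of which 32 lay at higher coordinates. Of the 34, 28 had a log2 fold change above 0, while 48.8% of all tested genes were below 0. The median of the 34 was 0.08. At an unadjusted p under 0.05, 6 were higher (6.55% over all genes) and 0 lower, and in 2 every *Fmr1* KO female was above every WT female (3.59% over all genes). *Prrg3*, a transmembrane protein with a Gla domain, had 10.30, 10.09, 10.14 and 10.09 in WT and 10.49, 10.33, 10.44 and 10.44 in *Fmr1* KO females. Here the groups did not overlap (log2 fold change 0.27, SE 0.06), as was the case for *1110012L19Rik* (0.16). The groups overlapped in the other 4 genes, which were *Gabra3* (0.50), *Gpr50* (0.32), *Cd99l2* (0.29) and *Zfp275* (0.22). In each of these 4, WT female 1 was the highest WT mouse and *Fmr1* KO females 1 and 3 were the highest *Fmr1* KO mice. Those mice also had high thalamic and hypothalamic scores, and the part of that score here was not tested. *Gabra3* encodes a subunit of the GABA-A receptor.

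The 12 largest decreases among genes with an unadjusted p under 0.01 and no overlap of the groups ranged from -1.01 to -0.65. *Ptprv*, a receptor tyrosine phosphatase gene, had 9.47, 10.10, 9.86 and 10.31 in WT and 8.90, 9.11, 8.50 and 9.21 in *Fmr1* KO females. Its log2 fold change of -1.01 (SE 0.20) was the largest in size of the 24 largest differences named here. *Plxnd1*, the receptor of semaphorin 3E, had 11.15, 11.31, 11.20 and 11.53 against 10.37, 10.86, 10.03 and 10.78 (-0.79, SE 0.18). In both genes *Fmr1* KO female 3 had the lowest value. *Adora2a*, the adenosine receptor of indirect-pathway SPNs, had a log2 fold change of -0.75. *Arhgap33*, a regulator of small GTPases and of receptor trafficking in neurons, had -0.70. *Rasgrp2*, which activates the GTPase Rap1 in response to calcium and diacylglycerol, also had -0.70. The acid-sensing channel subunit *Asic4* had -0.67, the formin *Inf2* -0.65 and the multi-PDZ protein *Pdzd2* -0.65. The remaining genes of this set were *Fmr1*, *Mid1* and the scaffolds *Dlgap3* and *Shank3*, described below with the synapse. In every gene of the set but *Fmr1* and *Mid1*, WT female 1 had the lowest WT value and *Fmr1* KO female 3 the lowest value of all. These mice also had the lowest SPN scores of their groups (-0.23 and -0.79). The part of those scores in the decreases was not tested.

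The 12 largest increases under the same conditions ranged from 0.54 to 0.94. *Cbln2*, a secreted organizer that links neurexins to postsynaptic receptors, had 8.01, 7.22, 7.30 and 7.58 in WT and 8.49, 8.48, 8.78 and 8.13 in *Fmr1* KO females (0.94, SE 0.19). *Ndn*, the paternally expressed gene for necdin in the Prader-Willi region, had 10.91, 10.45, 10.57 and 10.51 against 12.08, 11.08, 11.88 and 11.16 (0.94, SE 0.23). Its highest WT value came from WT female 1 and its highest *Fmr1* KO values from females 1 and 3, the mice with high thalamic and hypothalamic scores. The part of that score in the result was not tested. *Cadps2*, which primes dense-core vesicles for release, had 9.64, 8.96, 9.07 and 9.72 in WT and 10.25, 10.15, 10.21 and 10.26 in *Fmr1* KO females. The *Fmr1* KO values spanned little (SD 0.05), the WT values much more (SD 0.39), and the log2 fold change was 0.87 (SE 0.16). The others were the carbonic anhydrase relative *Car10* (0.73), the perineuronal net link protein *Hapln4* (0.67), the formin *Fhod3* (0.66), the neurturin receptor *Gfra2* (0.63), the receptor phosphatase *Ptprk* (0.62) and the membrane protein *Tmem196* (0.54). Beside *Prg4*, the sulfate transporter *Slc13a4* (0.63) and the organic cation exporter *Slc47a1* (0.62) completed the set. WT female 1 had the highest WT value in every gene of the set but *Cadps2* and *Slc47a1*. Beside *Ndn*, *Fmr1* KO female 1 or 3 was the highest mouse in *Cbln2*, *Hapln4*, *Gfra2*, *Slc13a4*, *Ptprk* and *Tmem196*. In *Prg4*, *Cadps2*, *Car10*, *Fhod3* and *Slc47a1* it was *Fmr1* KO female 2 or 4. The part of the thalamic and hypothalamic scores in these increases was not tested. In the males of the series, which were not tested here, 22 of the 24 genes differed in the same direction, against 63.0% of all tested genes. The 24 were picked for size and separation and include *Fmr1*, which differs by design in both sexes. Among all genes without overlap, 70.7% of those lower and 68.1% of those higher shared the direction.

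**Figure D2:**
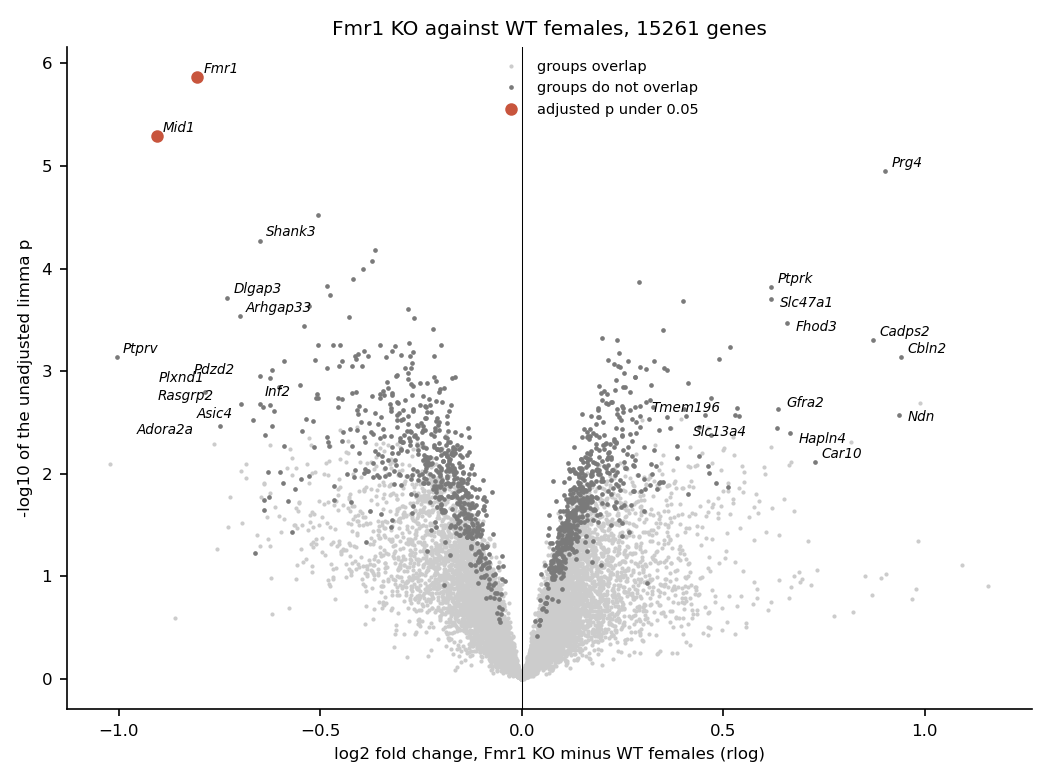
Each point is 1 of 15261 genes, with the log2 fold change (*Fmr1* KO minus WT females) on the x axis and -log10 of the unadjusted limma p on the y axis. *Fmr1* and *Mid1* (red) were the 2 genes past the adjusted threshold, dark grey points are the 1142 genes whose groups did not overlap, and the 24 largest differences are named.

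The counts of list members given from here on are to be read against the shares over all genes, which at an unadjusted p under 0.05 were 7.93% lower and 6.55% higher, and 3.89% lower and 3.59% higher without overlap. They rest on few mice, and in 46 of the 50 lists leaving out 1 mouse moved the number of lower or of higher members by more than 1.5 times.

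The SPN markers were lower in *Fmr1* KO females as a group of means but not beyond the spread of single mice. All 18 shared markers had a log2 fold change below 0, with a median of -0.52 against 0.0028 over all genes tested. At an unadjusted p under 0.05, 10 of the 18 (55.6%, against 7.93% of all genes) were lower and 0 higher, and the groups did not overlap in 2 (3.89% of all genes were lower without overlap). *Ptpn5*, the striatal phosphatase STEP, had 13.05, 13.50, 13.38 and 13.46 in WT and 12.90, 12.95, 12.58 and 12.92 in *Fmr1* KO females (-0.51, SE 0.12). *Adcy5*, the main adenylyl cyclase of SPNs, had 13.86, 14.42, 14.35 and 14.37 against 13.70, 13.82, 13.27 and 13.84 (-0.59, SE 0.16). In each, WT female 1 sat just above the *Fmr1* KO range and *Fmr1* KO female 3 below the rest. *Ppp1r1b*, which encodes the dopamine effector DARPP-32, had 13.55 in WT female 1, under the 13.61 and 13.66 of *Fmr1* KO females 2 and 4, so its groups overlapped (-0.64, SE 0.21). The same held for the small GTPase *Rasd2* (-0.68) and the G protein subunit *Gng7* (-0.64). Leaving out WT female 1 moved the median to -0.72 with 17 lower members, and leaving out *Fmr1* KO female 3 moved it to -0.35 with 6. With both left out it was -0.53 with 18 lower members. Omitting WT female 2, 3 or 4 gave 6. In tissue, fewer SPNs, less RNA per SPN and a larger share of neighboring tissue cannot be told apart. WT female 1 and *Fmr1* KO females 1 and 3 had the lowest SPN scores and the highest thalamic and hypothalamic scores. The part of those scores in the SPN difference was not tested.

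Both pathways were represented among these differences. Of 8 direct-pathway markers 7 were below 0 (median -0.40, 3 lower and 0 higher with an unadjusted p under 0.05), and of 8 indirect-pathway markers 6 were (median -0.36, 5 lower and 0 higher). The direct count was 5 when *Fmr1* KO female 2 or 4 was omitted and the indirect count 2 in the absence of WT female 2. *Pdyn*, the precursor of dynorphin, had 11.28, 11.54, 11.60 and 11.26 in WT and 11.19, 10.98, 10.62 and 11.16 in *Fmr1* KO females. The groups were separated by 0.073 at their nearest values (-0.43, SE 0.13). The orphan transporter *Slc35d3* had -0.49 and the muscarinic receptor *Chrm4* -0.47, with overlap. *Drd1* itself had 11.75, 12.51, 12.50 and 12.37 against 11.69, 12.07, 11.00 and 12.18 (-0.54, SE 0.27), also with overlap. In the indirect pathway *Adora2a* had 11.31, 11.88, 11.79 and 11.93 in WT and 11.10, 11.22, 10.45 and 11.14 in *Fmr1* KO females. It was the member without overlap. *Drd2* (-0.61), the constitutively active receptor *Gpr6* (-0.55) and *Penk*, the enkephalin precursor (-0.46), overlapped between the groups. Without *Fmr1* KO female 3 the medians of the pathway lists were -0.21 and -0.26.

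Markers of other neurons differed between single mice of both genotypes. All 13 tested markers of thalamus and hypothalamus were above 0 (median 0.20), and none reached an unadjusted p of 0.05. Omitting *Fmr1* KO female 2 gave a median of 0.45 with 6 higher members, omitting WT female 1 gave 0.44 with 2, and omitting *Fmr1* KO female 3 gave 0.07 with 0. *Slc17a6*, the vesicular glutamate transporter of thalamus, had 9.83, 7.91, 8.24 and 8.94 in WT and 10.38, 8.71, 10.97 and 9.24 in *Fmr1* KO females. Its log2 fold change of 1.09 had an SE of 0.55, and the high values were those of WT female 1 and *Fmr1* KO females 1 and 3. Oxytocin (*Oxt*) was at 6.11 and 6.88 in the same *Fmr1* KO mice and at 4.49 to 4.74 in the other 6 mice. The 10 markers of cortical and other excitatory neurons had a median of 0.22, which became -0.08 without *Fmr1* KO female 2. The striatal interneurons had a median of -0.03 over 14 markers, with 1 lower and 0 higher, and the 9 markers of septum and pallidum had 0.02, with *Hapln4* higher at an unadjusted p under 0.05.

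**Figure D3:**
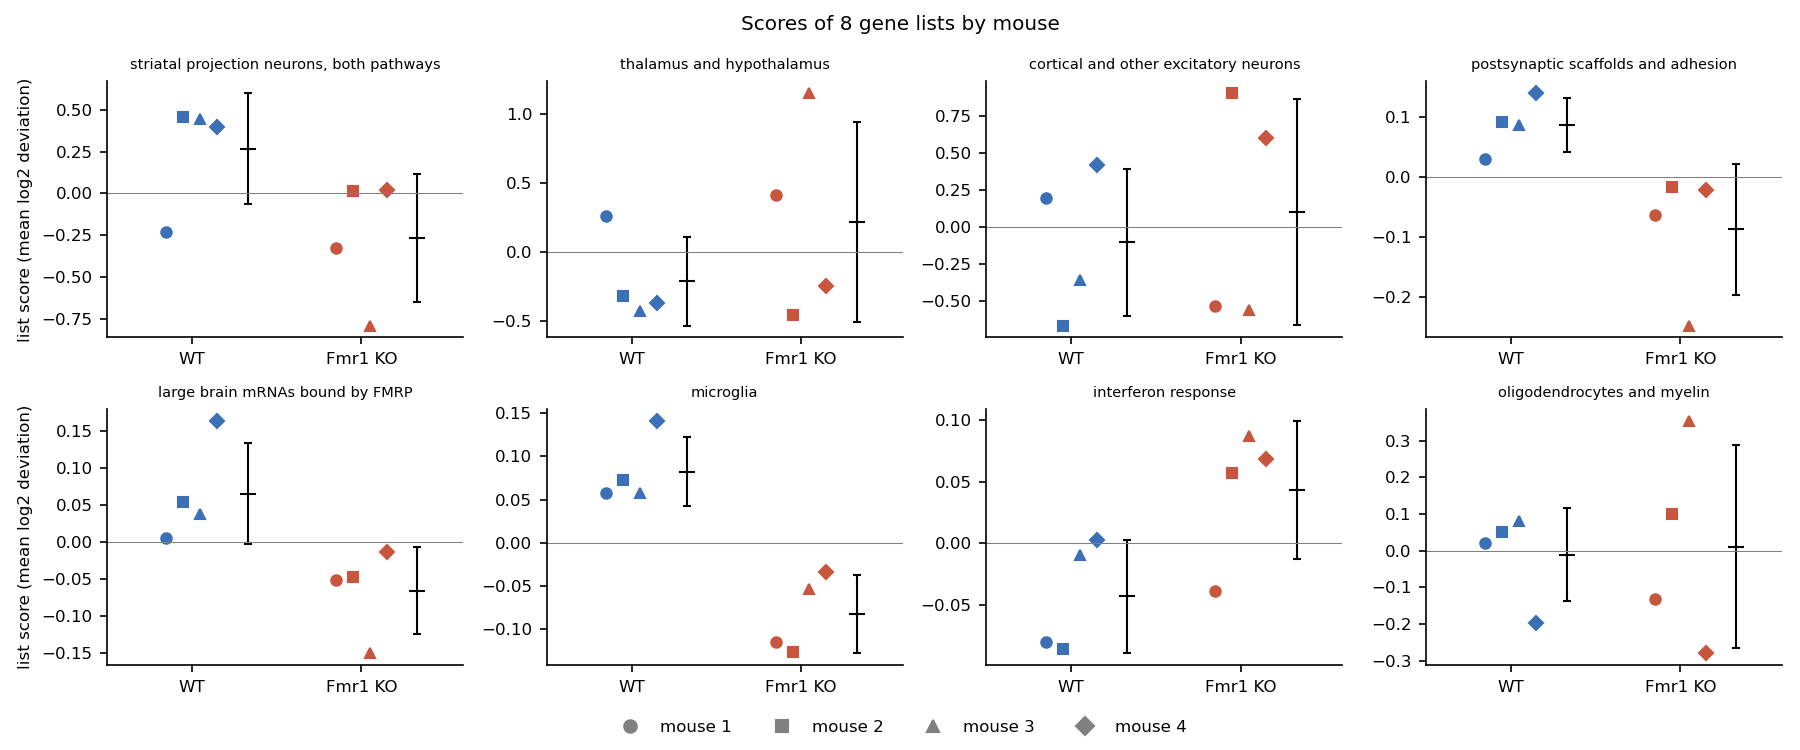
Scores of 8 gene lists by mouse (deviation from each gene's 8-female mean, averaged over the list, log2 scale), with WT in blue, *Fmr1* KO in red and bars giving the mean ± SD of 4 mice. WT female 1 and *Fmr1* KO females 1 and 3 are the lowest 3 mice in the SPN panel and the highest 3 in the thalamic panel, whereas the groups do not overlap in the postsynaptic, FMRP-bound and microglia panels.

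Genes of the postsynaptic density were the group of synaptic genes with the largest share of lower members. Of 31 scaffold and adhesion genes, 25 were below 0 (median -0.19), with 14 lower (45.2%, against 7.93% of all genes) and 2 higher with an unadjusted p under 0.05. In 7 the groups did not overlap, all of them lower (3.89% over all genes). The lower members numbered 8 when WT female 4 was omitted, 9 when WT female 2 or *Fmr1* KO female 3 was, and 10 to 14 otherwise. *Shank3* (chr15:89499623-89560261), the master scaffold of the density, had 11.93, 12.21, 12.06 and 12.35 in WT and 11.44, 11.55, 11.39 and 11.58 in *Fmr1* KO females. The highest *Fmr1* KO value was 0.353 under the lowest WT value. The log2 fold change was -0.65 (SE 0.09, adjusted p = 0.163 with limma). *Dlgap3*, the scaffold SAPAP3 that ties Shank to PSD-95 and is enriched in striatum, had 11.82, 12.10, 11.87 and 12.29 against 11.29, 11.48, 11.05 and 11.33 (-0.73, SE 0.12). *Dlg4*, which encodes PSD-95, had 13.83, 14.01, 13.96 and 14.04 against 13.67, 13.58, 13.36 and 13.57 (-0.41, SE 0.08). In these 3 genes WT female 1 had the lowest WT value and *Fmr1* KO female 3 the lowest value of all. *Begain*, a partner of PSD-95, had -0.23. The list score ran from 0.03 to 0.14 in WT and from -0.25 to -0.02 in *Fmr1* KO females. The lowest mice within their genotype were those with the lowest SPN scores, WT female 1 (0.03) and *Fmr1* KO females 3 and 1 (-0.25 and -0.06). The part of the SPN markers in the list's difference was not tested. With a correction for transcript GC content the median was -0.13 and 9 members were lower.

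The mRNAs known to be bound by FMRP in brain were read as a list of 45 large transcripts, which shares *Shank3*, *Dlg4* and *Grm5* among others with the synaptic lists. Of these 34 were below 0 (median -0.11), 13 were lower (28.9%, against 7.93% of all genes) and 0 higher with an unadjusted p under 0.05, and 9 showed no overlap, all lower (3.89% over all genes). *Adgrb2*, an adhesion receptor of neurons, had 12.03, 11.98, 11.96 and 12.13 in WT and 11.70, 11.69, 11.32 and 11.59 in *Fmr1* KO females (-0.45, SE 0.09). *Plec*, the cytolinker plectin, had 11.44, 11.42, 11.33 and 11.62 against 11.25, 11.17, 11.09 and 11.14 (-0.29, SE 0.07). Both genes were separated between the groups. The score of the list ran from 0.01 to 0.16 in WT and from -0.15 to -0.01 in *Fmr1* KO females, again lowest in WT female 1 and in *Fmr1* KO females 3 and 1. The GC content of these transcripts had a median of 53.6%, and with a correction for GC content 11 members were lower and 1 higher (median -0.08). The protein partners and paralogs of FMRP did not share this direction. Of 12 genes including *Fmr1* itself 4 were below 0, with a median of 0.03. Beside *Fmr1*, the scaffold partner *Ranbp9* (0.13) had an unadjusted p under 0.05, and *Cyfip2*, a link to the actin cytoskeleton, had -0.19 and did not.

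**Figure D4:**
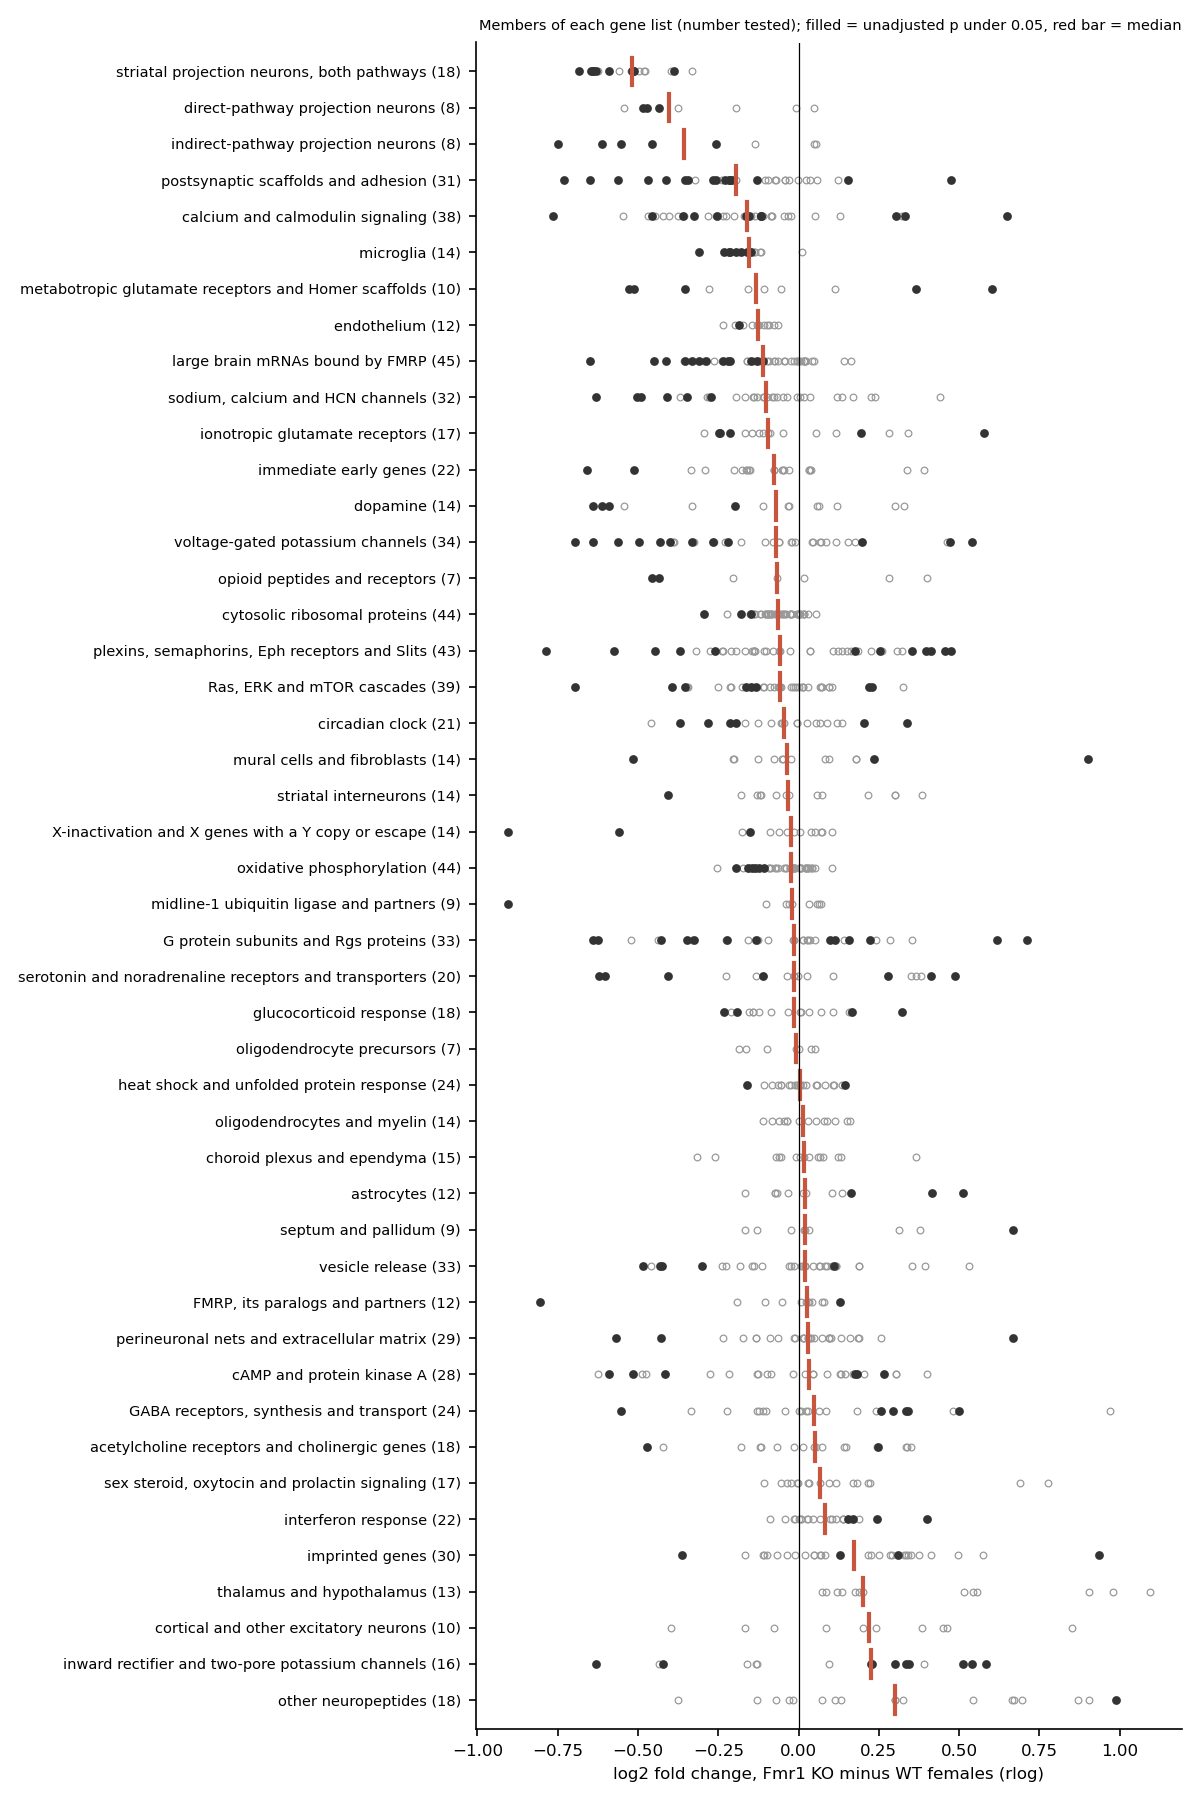
Log2 fold changes (*Fmr1* KO minus WT females, x axis) of the tested members of 46 gene lists, 1 row a list with the number of members in brackets, ordered by median. Filled points have an unadjusted limma p under 0.05, open points do not, and red bars give medians, which run from -0.52 for SPN markers to 0.30 for other neuropeptides.

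Receptors differed by family and by member. Among 10 metabotropic glutamate receptors and Homer scaffolds, 3 were lower and 2 higher with an unadjusted p under 0.05, with 5 lower when WT female 1 was omitted and 1 when WT female 2, 3 or 4 or *Fmr1* KO female 1 was. *Grm4*, a presynaptic receptor that lowers release, had 9.77, 10.21, 10.01 and 10.13 in WT and 9.47, 9.57, 9.43 and 9.53 in *Fmr1* KO females. There was no overlap (-0.53, SE 0.09). *Grm5*, the receptor whose signaling FMRP is known to oppose, had 12.99, 13.43, 13.46 and 13.33 against 12.99, 13.03, 12.57 and 13.22 (-0.35, SE 0.15), with overlap. *Grm2* (0.60) and *Grm8* (0.37) had positive values. Of 17 ionotropic subunits 3 were lower, *Grik5* (-0.25), *Grin2c* (-0.25) and *Grin1* (-0.21), and 2 were higher, with *Gria4* at 0.19. After the correction for GC content 0 were lower and 1 higher, and 6 were lower when WT female 1 was omitted.

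GABA genes had more members above 0 than below. Of 24, 8 were below 0 (median 0.05), 5 were higher and 1 lower. The number higher was 9 when *Fmr1* KO female 2 was omitted, and the number lower was 4 when WT female 1 was. The GABA-B subunit *Gabbr2* (0.34) overlapped between the groups. Among monoamine receptors *Adra2c*, the alpha-2C adrenergic receptor of SPNs, had 8.75, 9.07, 9.09 and 9.15 in WT and 8.46, 8.51, 8.04 and 8.57 in *Fmr1* KO females (-0.62, SE 0.13). *Htr1d*, an inhibitory serotonin receptor, had 8.21, 8.63, 8.65 and 8.69 against 7.98, 7.94, 7.67 and 8.18 (-0.60, SE 0.13). Neither gene overlapped between the groups. *Adra1d* (0.41) and *Htr5a* (0.28) had positive values, and over the 20 tested genes of the list 4 were lower and 3 higher. The dopamine list had 4 lower and 0 higher of 14, among them *Adcy5*, *Ppp1r1b* and *Drd2*. Of the 18 acetylcholine genes 1 was lower, *Chrm4*, and 1 higher, *Chrnb3*, a nicotinic subunit near the minimum of the comparison (3.14 to 3.18 in WT, 3.21 to 3.55 in *Fmr1* KO females).

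The opioid genes *Pdyn* and *Penk* were below 0, as described, and the 7 opioid genes had a median of -0.07. The 18 other neuropeptides had the highest median of all lists, 0.30, with 13 above 0 but 1 past an unadjusted p of 0.05. That gene, *Adcyap1*, which encodes the peptide PACAP, had 7.02, 6.34, 6.60 and 6.59 in WT and 7.85, 7.87, 7.87 and 6.92 in *Fmr1* KO females. *Fmr1* KO female 4 lay below WT female 1, so the groups overlapped (0.99, SE 0.23). In the males the means differed by 0.005. The score of this list was highest in *Fmr1* KO females 1 and 3 (0.40 and 0.46), and without *Fmr1* KO female 2 the number of higher members went from 1 to 8. The part of the neighboring-region markers in these values was not tested.

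Ion channels were counted by family. Of 16 inward rectifier and K2P leak potassium channels 8 were higher and 2 lower at an unadjusted p under 0.05 (median 0.23), and in 1 of each direction the groups did not overlap. *Kcnk9*, the acid-sensitive leak channel TASK-3, had 10.52, 9.85, 10.04 and 10.48 in WT and 10.90, 10.53, 10.95 and 10.57 in *Fmr1* KO females. The nearest values of the groups lay 0.006 apart (0.51, SE 0.17). *Kcnj3* (0.58) and *Kcnj6* (0.54), subunits of the channels opened by G proteins, overlapped between the groups. *Kcnj4*, the rectifier Kir2.3 of SPNs, had 10.63, 10.80, 10.59 and 10.84 against 10.12, 10.55, 9.48 and 10.17 (-0.63, SE 0.19). The number of higher members was 3 when WT female 2 or 3 was omitted and 4 when WT female 4 or *Fmr1* KO female 3 was. Of 34 voltage-gated potassium channel genes 9 were lower and 3 higher (median -0.07). Omitting WT female 4 gave 5 lower and 0 higher, omitting WT female 2 or *Fmr1* KO female 3 gave 6 and 0, and omitting WT female 3 or *Fmr1* KO female 1 gave 6 and 1. The lower members included *Kcng1* (-0.40) and the sodium-activated *Kcnt1* (-0.33), both without overlap, and *Kcnip2* (-0.56) and *Kcnh4* (-0.70) with overlap. Of 32 sodium, calcium and HCN channel genes 6 were lower and 0 higher (median -0.10), with 11 lower and 3 higher when WT female 1 was omitted and 3 lower when WT female 3 or 4 was. *Cacna1h*, a low-threshold calcium channel, had 10.77, 11.06, 10.90 and 11.20 in WT and 10.63, 10.49, 10.35 and 10.45 in *Fmr1* KO females, with no overlap (-0.50, SE 0.10). The auxiliary subunits *Cacng4* (-0.41), *Cacnb1* (-0.35) and *Cacng3* (-0.49) had negative values too.

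Signaling genes below the receptors were mixed. The cAMP list of 28 had 3 lower and 3 higher, which became 7 and 7 when WT female 1 was omitted, 8 and 5 when *Fmr1* KO female 4 was, 1 and 0 when WT female 2 was and 1 and 1 when WT female 4 was. It held *Adcy5* and the phosphodiesterase *Pde2a* (-0.42) on the negative side and *Pde4d* (0.18) and the anchoring protein *Akap7* (0.18) on the positive side. The 33 G protein and Rgs genes had 7 lower and 6 higher, and the number higher was 1 when WT female 2 was omitted, 2 when WT female 4 was and 3 when *Fmr1* KO female 2 or 4 was. Members included *Rgs14* at -0.63, *Gnb5* at -0.35, *Gnb2* at -0.32 and *Gng2* at 0.62. Of 38 calcium signaling genes 32 were below 0 (median -0.16, 9 lower and 3 higher). The lower members numbered 17 when WT female 1 was omitted, 16 when *Fmr1* KO female 4 was, and 3, 5 and 4 when WT female 2, 3 or 4 was. The ryanodine receptor *Ryr1* (-0.76) and the kinase subunit *Camk2b* (-0.36) were on the negative side, and *Camk2g* (0.33) on the positive side. The list of 39 Ras, ERK and mTOR genes had 6 lower and 2 higher. *Hras*, a small GTPase of this cascade, had 11.21, 11.47, 11.43 and 11.51 in WT and 11.02, 11.11, 10.87 and 11.04 in *Fmr1* KO females (-0.39, SE 0.08). The groups did not overlap in this gene, nor in the exchange factor *Sos1* (0.23). *Grk5*, a kinase that desensitizes G protein-coupled receptors, had 9.21, 9.41, 9.34 and 9.27 in WT and 8.95, 8.92, 8.93 and 8.96 in *Fmr1* KO females. The *Fmr1* KO values lay within 0.036 of each other (-0.37, SE 0.05, adjusted p = 0.167 with limma).

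Immediate early genes, the transcription factors and effectors switched on by neuronal activity, had a median of -0.08 over 22 genes with 2 lower and 0 higher, which were *Egr3* (-0.66) and *Homer1* (-0.51). The groups overlapped in both. Without *Fmr1* KO female 2 the median was -0.26 with 5 lower members, and without WT female 1 it was 0.02. *Creb5*, a transcription factor of the CREB family, had a log2 fold change of 0.21 with overlap, and *Creb3l3* was under the minimum of the comparison, with 2.46 to 2.52 in WT and 2.53 to 2.59 in *Fmr1* KO females.

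The circadian clock list had 4 lower and 2 higher (9.52%, near the 6.55% of all genes) of 21 genes, beside 7.93% lower over all genes. In 4 genes the groups did not overlap, 3 lower and 1 higher. The number lower was 2 when WT female 3 or *Fmr1* KO female 3 was omitted. *Cry1*, a repressor of the clock, had 8.90, 9.05, 9.05 and 8.90 in WT and 8.76, 8.62, 8.64 and 8.74 in *Fmr1* KO females (-0.28, SE 0.06). *Arntl*, which encodes the activator BMAL1, had 10.04, 10.29, 10.26 and 10.33 against 9.76, 9.99, 9.72 and 9.96 (-0.37, SE 0.08). *Nr1d2*, which encodes the repressor REV-ERB beta, had 11.35, 11.39, 11.42 and 11.38 against 11.55, 11.55, 11.56 and 11.69 (0.20, SE 0.05). These 3 genes were separated between the groups, and *Per2* (-0.20) was not. The time of day of each dissection is not given in the sources used here. BMAL1 binds the E-box CACGTG with its partner CLOCK. The motif was found, on either strand, in promoters of 5 of the 18 clock genes matched in the RefSeq table and in 7.15% of all promoters. A gene was counted if any of its start sites matched, while the share over all promoters counts each start site, so the units differ. Of the 5 matched genes with an unadjusted p under 0.05, 2 had it. That of *Cry1* is shown with the E-box in capitals (chr10:85185079-85185144, minus strand).
Cry1: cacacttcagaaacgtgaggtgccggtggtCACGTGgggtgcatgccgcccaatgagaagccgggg
The list of genes induced by glucocorticoids had 2 lower and 2 higher of 18 (median -0.01), with *Zbtb16* at 0.32 and *Fkbp5* at -0.23.

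Presynaptic and guidance genes had no common direction. Of 33 genes of vesicle release 4 were lower and 1 higher (median 0.02). *Cplx2*, the complexin that clamps fusion, had -0.42 and the priming factor *Unc13a* -0.30, both without overlap, and the calcium sensor *Doc2b* had -0.43 with overlap. The 43 plexins, semaphorins, Eph receptors and Slits had 5 lower and 7 higher (median -0.06), and 10 lower and 12 higher when WT female 1 was omitted. *Sema3f* had 8.10, 8.22, 8.09 and 8.28 in WT and 7.97, 7.67, 7.58 and 7.69 in *Fmr1* KO females (-0.45, SE 0.09), and *Efna3* (-0.26) was also without overlap. *Slit3* (-0.58) was not. Of 29 perineuronal net and matrix genes 2 were lower, *Col6a1* (-0.57) and *Reln* (-0.43), and 1 higher, *Hapln4*.

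Microglial genes were lower in *Fmr1* KO females by small amounts that exceeded the spread between mice in some members. Of 14 markers 13 were below 0 (median -0.15), 8 were lower (57.1%, against 7.93% of all genes) and 0 higher with an unadjusted p under 0.05, and in 4 the groups did not overlap (3.89% of all genes were lower without overlap). With any 1 mouse omitted 6 to 10 were lower. *Tmem119*, a membrane protein of resident microglia, had 8.74, 8.67, 8.50 and 8.70 in WT and 8.40, 8.28, 8.41 and 8.30 in *Fmr1* KO females (-0.31, SE 0.07). *Csf1r*, the receptor on which microglia depend, had 11.45, 11.53, 11.49 and 11.63 against 11.23, 11.35, 11.32 and 11.36 (-0.21, SE 0.05). The lipid-sensing receptor *Trem2* (-0.22) and the complement subunit *C1qa* (-0.18) were also without overlap. The 3 mice with low SPN scores did not stand apart here, as the microglia score was 0.06, 0.07, 0.06 and 0.14 in WT females 1 to 4 and -0.11, -0.13, -0.05 and -0.03 in *Fmr1* KO females 1 to 4. With WT female 1 and *Fmr1* KO female 3 both left out the median was -0.19 with 8 lower members. In the males *Tmem119* and *C1qa* differed by 0.03 and 0.02, and *Csf1r* by -0.17.

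Interferon-response genes had a few members that were higher by small amounts. Of 22 tested genes 4 were below 0 (median 0.08), and 4 were higher (18.2%, against 6.55% of all genes) and 0 lower at an unadjusted p under 0.05, each without overlap (3.59% of all genes were higher without overlap). *Ifit2*, an RNA-binding antiviral protein, had 7.89, 7.81, 7.92 and 7.79 in WT and 8.16, 8.37, 8.32 and 8.16 in *Fmr1* KO females (0.40, SE 0.07, adjusted p = 0.198 with limma). *Oasl2*, a relative of the sensor enzymes for double-stranded RNA, had 0.24 and *Ifit1* 0.15. *Ifit1* belongs to a family of similar neighboring genes, among which the counting may have split reads. The score of the list overlapped between the groups, since *Fmr1* KO female 1 (-0.039) lay below WT females 3 and 4 (-0.0096 and 0.0025). Without that mouse 8 members were higher, and without *Fmr1* KO female 3 there were 3. Interferon acts through a response element, searched as 2 copies of GAAA with any 2 bases between, which was found, on either strand, in promoters of 12 of the 18 listed genes matched in the RefSeq table, against 3.44% of all promoters. Here too a gene was counted if any of its start sites matched, while the 3.44% counts each start site. Of the 3 matched members with an unadjusted p under 0.05, 1 had the element. A match was present in *Ifit1* and in its neighbor *Ifit3* (0.19, with overlap, chosen for its promoter after the values were seen). Both are shown on the plus strand of GRCm38.p6 with the elements, here read on the other strand as copies of TTTC, in capitals (chr19:34640755-34640843 and chr19:34583343-34583446).
Ifit1: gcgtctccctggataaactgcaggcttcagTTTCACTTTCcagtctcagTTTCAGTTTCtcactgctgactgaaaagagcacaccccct
Ifit3: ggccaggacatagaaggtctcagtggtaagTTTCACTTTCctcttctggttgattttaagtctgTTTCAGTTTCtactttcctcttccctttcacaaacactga
Each window holds 2 matches.

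Other cells of the tissue gave fewer differences. Of 12 astrocyte markers 3 were higher and 0 lower, *Gfap* (0.51), the connexin *Gjb6* (0.41) and the water channel *Aqp4* (0.16), and the median was 0.02. *Gfap* had 11.25, 10.79, 10.42 and 10.57 in WT and 11.31, 11.27, 11.48 and 11.02 in *Fmr1* KO females. Its highest WT value belonged to WT female 1, above *Fmr1* KO female 4. All 12 endothelial markers were below 0 (median -0.13), but 1 was lower at an unadjusted p under 0.05, *Tie1* (-0.19), and without *Fmr1* KO female 1 the median was -0.03. Oligodendrocyte genes had a median of 0.02 with 0 of 14 past that p. Among mural cells and fibroblasts *Prg4* and the matrix proteoglycan *Dcn* were higher and the contractile protein *Tagln* was lower. *Dcn* had 8.13, 8.04, 7.95 and 8.13 in WT and 8.30, 8.25, 8.34 and 8.30 in *Fmr1* KO females (0.24, SE 0.06), and *Tagln* had 7.82, 8.22, 8.35 and 8.47 against 7.45, 7.82, 7.80 and 7.73 (-0.52, SE 0.14). The choroid plexus and ependyma list of 15 had 0 members past that p.

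Housekeeping groups showed small differences. Of 44 cytosolic ribosomal protein genes 36 were below 0, yet the median was -0.07 and 3 were lower (6.82%, under the 7.93% of all genes) and 0 higher, with *Rps2* at -0.18. Without *Fmr1* KO female 1 the number of lower members was 17. Of 44 genes of oxidative phosphorylation 6 were lower (13.6%, against 7.93% of all genes) and 0 higher (median -0.02), with 3 lower when WT female 4 or *Fmr1* KO female 2 was omitted. *Cox7c* had 9.00, 8.95, 8.92 and 8.92 in WT and 8.79, 8.75, 8.75 and 8.73 in *Fmr1* KO females (-0.19, SE 0.04). Heat shock and unfolded protein genes had 1 lower, *Ddit3* (-0.16), and 1 higher, *Atf4* (0.15), of 24.

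Lists tied to sex and to the X chromosome were examined because all mice were female. *Xist* had 13.60, 14.21, 14.36 and 14.18 in WT and 13.70, 13.80, 13.58 and 13.04 in *Fmr1* KO females (-0.56, SE 0.20). WT female 1 lay within the *Fmr1* KO range, so the groups overlapped. *Tsix*, transcribed from the opposite strand of the same locus, had -0.15. The counting is not stated to use strand, so the reads of this pair cannot be told apart. Of the 14 genes of X inactivation or with escape from it, 3 were lower (*Mid1*, *Xist* and *Tsix*) and 0 higher, with a median of -0.03. The 17 genes of sex steroid, oxytocin and prolactin signaling had a median of 0.07 with 0 past an unadjusted p of 0.05, but 6 were higher (median 0.12) when *Fmr1* KO female 2 was omitted. The estrogen target *Greb1* had a log2 fold change of 0.22. Of 30 imprinted genes 22 were above 0 (median 0.17), with 3 higher and 1 lower. *Plagl1* (0.31) and *Peg13* (0.13) were higher beside *Ndn*, and the antisense RNA *Kcnq1ot1* had -0.36. Without *Fmr1* KO female 2 the median was 0.35 with 11 higher members, and without *Fmr1* KO female 1 it was 0.08.

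The genes of 3 substance dependence pathways, as recalled from KEGG, were counted because the study was concerned with reward. The cocaine list had 8 lower (17.8%) and 4 higher (8.89%) of 45 at an unadjusted p under 0.05 (median 0.01). The nicotine list had 4 lower and 4 higher of 33 (12.1% each, median -0.01), and the morphine list 10 lower (14.7%) and 11 higher (16.2%) of 68 (median 0.01). Over all genes these shares were 7.93% and 6.55%. When WT female 2 was omitted the morphine list had 6 lower and 5 higher and the nicotine list 2 lower, and the cocaine list then had 1 higher. When *Fmr1* KO female 4 was omitted the cocaine list had 13 lower, and when *Fmr1* KO female 2 was omitted the nicotine list had 11 higher. The cocaine list shares *Dlg4*, *Adcy5*, *Grm2*, *Ppp1r1b* and *Pdyn* with groups described above, and *Atf6b*, a transcription factor of the unfolded protein response, added a log2 fold change of -0.23 without overlap. These medians were close to the 0.0028 of all genes.

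Transcript GC content moved with the direction of the differences. A GC value was available for 15119 of the tested genes (99.1%). The genes were divided into 5 classes of near equal size by GC content. In the class with the lowest (31.0% to 44.4%), 2.02% were lower and 10.6% higher with an unadjusted p under 0.05. In the class with the highest (55.9% to 71.3%), 20.5% were lower and 2.12% higher. Most of the 12 largest decreases lay in the highest class. They were *Shank3* (62.4%), *Dlgap3* (63.9%), *Plxnd1* (60.8%), *Asic4*, *Arhgap33*, *Inf2*, *Adora2a*, *Rasgrp2* and *Ptprv*. *Mid1* and *Pdzd2* lay in the class next to it, and *Fmr1* (39.2%), which differs by design, lay in the lowest. Of the 12 largest increases, only *Hapln4* lay in the highest class and only *Tmem196* in the lowest. The medians of the log2 fold change were small, 0.03 in the lowest class and -0.06 in the highest. By mouse, the difference of the median deviation between the highest and the lowest class was 0.16, 0.03, -0.09 and 0.08 in WT and 0.04, -0.06, 0.01 and -0.17 in *Fmr1* KO females, so the groups overlapped. With each mouse corrected for its trend on GC content, *Fmr1* and *Mid1* remained the 2 genes past the adjusted threshold. The part of GC content in the other differences was not tested beyond this correction.

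**Figure D5:**
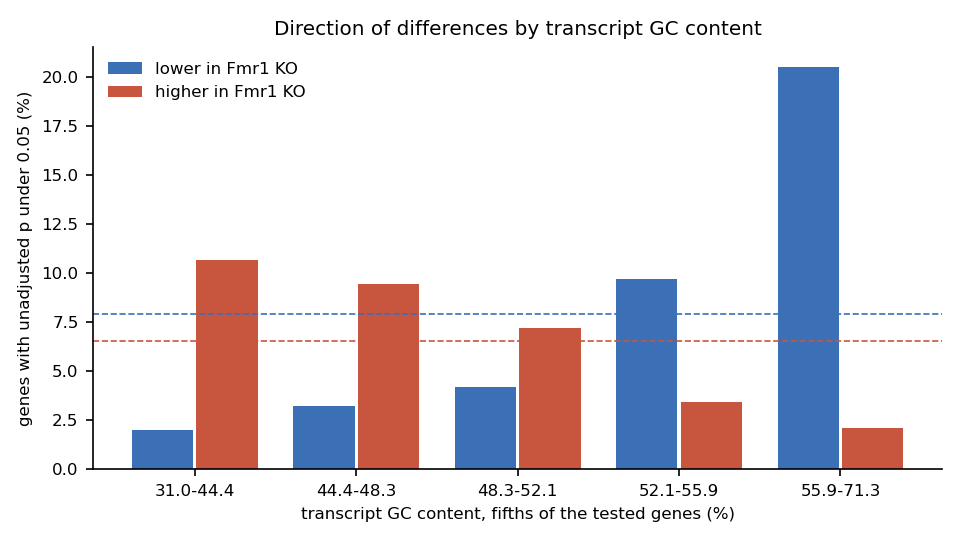
Percentage of genes lower (blue) and higher (red) in *Fmr1* KO females at an unadjusted limma p under 0.05, for 5 classes of the tested genes by transcript GC content (x axis, percent). Dashed lines give the shares over all genes, 7.93% lower and 6.55% higher, and the share of lower genes goes from 2.02% in the lowest class to 20.5% in the highest.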

How the data were processed

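The authors prepared stranded mRNA libraries from single mice and, per the submitters' processing notes, used STAR, DESeq2 and the mouse genome mm10 (GRCm38). The authors ran STAR within Illumina's RNA-seq alignment application, which also gave the read counts. The deposited values are log2-scale rlog values, which the authors computed with DESeq2 over all samples. Versions of STAR and DESeq2 are not given in the sources used here. Read counts were not used, so depth is unknown. An *Fmr1* KO male excluded by the authors was not analysed here, and 0 columns belonged to other series.

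Genes whose mean rlog over 15 mice reached 3 were fitted in the 8 females with limma 3.58.1 in R 4.3.3 (genotype as the only term, empirical Bayes with a variance trend, 2-sided moderated test, Benjamini-Hochberg adjustment over all genes). Genes under 0.05 after adjustment were called. The fit was tested on simulated data. Tables and plots were made with pandas 2.3.3 and matplotlib 3.10.9 in Python 3.11.15. GC content came from GENCODE M21 transcripts and promoters from RefSeq (GRCm38.p6). Of the symbols, 24498 were matched to GENCODE and 417 more to RefSeq.

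The members and the 50 gene lists were chosen with earlier results of these data known, so their counts are descriptions. Named genes were *Fmr1*, every called gene, the 12 largest differences in each direction among genes with an unadjusted p under 0.01 and no overlap, up to 4 members of a list with the smallest p, X-linked genes within 5 Mb of *Fmr1* with an unadjusted p under 0.05, and 6 genes the study discussed (*Pdyn*, *Adcy5*, *Ppp1r1b*, *Drd1*, *Creb5*, *Creb3l3*). Some genes that the rule names are not reported here. *Ifit3* and the list overlaps were named after the values were seen. Alternatives were another or no minimum, no variance trend, quantile normalization, centring on sample medians, quality weights per mouse, a block for the replicate number, a threshold of 0.1 and leaving out each mouse. A correction for GC content (lowess span 0.3) and leaving out WT female 1 and *Fmr1* KO female 3 together were added after seeing the data.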

Additional observations from a re-analysis of the deposited data

Results flagged for a closer look

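In 364 sets of 4 mice (1 gene or list score in 1 group), the mouse at one end lay far from the other 3 in 28, where the gap to its nearest neighbor, relative to the range, exceeded Dixon's critical value for 4 samples. Chance gives about 1 in 20 such sets. Many of the genes belong to shared cell types, so the sets are not independent.

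WT female 1 was the mouse apart in 17 of them. Among striatal genes it was low in *Adcy5* (rlog 13.86), *Gng7* (13.79), *Drd2* (11.52), *Gpr6* (9.24) and *Slc35d3* (9.58). It was also low in the channel subunits *Cacng3* (10.77) and *Cacng4* (9.09), in the serotonin receptor *Htr1d* (8.21), in *Reln* (11.24), the secreted organizer reelin, in *Slit3* (9.42) and in *Tsix* (4.05). It was high in *Htr5a* (8.64) and *Plagl1* (9.40). Its scores stood apart from the other WT females for the SPN markers (-0.23), the indirect pathway (-0.0689), thalamus and hypothalamus (0.26) and X inactivation (-0.0531).

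*Fmr1* KO female 3 was the low mouse in *Adora2a* (10.45), *Arhgap33* (11.47), *Ptpn5* (12.58), *Camk2b* (13.75) and *Grin1* (12.81). *Fmr1* KO female 4 was low in *Mid1* (6.09) and *Adcyap1* (6.92) and high in *Nr1d2* (11.69). WT female 3 was low in *Greb1* (5.02). *Fmr1* KO female 1 stood apart in the score of the guidance genes (0.0689) and *Fmr1* KO female 2 in that of midline-1 and its partners (-0.0651).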

How the results depend on the processing

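The number of genes past the adjusted threshold in limma was 2. It stayed at 2 with a minimum of 5, without the variance trend and with the GC correction, was 3 after centring, after quantile normalization and at a threshold of 0.1, 1 with no minimum (*Fmr1*), 16 with sample quality weights, 127 without WT female 1 and *Fmr1* KO female 3, and 0 to 37 with 1 mouse left out. Without adjustment, leaving out 1 mouse gave 696 to 1565 lower genes and 566 to 1266 higher ones. Quality weights gave 1721 lower and 1523 higher. The *Fmr1* difference stayed between -0.85 and -0.77 with any 1 mouse left out. With the replicate number as a block 0 genes were called, against 1301 lower and 1087 higher genes without adjustment (p under 0.05), and the adjusted p in limma was 0.0835 for *Fmr1* and 0.211 for *Mid1*. The deviations of same-numbered mice correlated at 0.40, 0.03, -0.19 and 0.44, and not every mouse correlated best with its own number. With 4 pairs these values cannot show whether same-numbered mice shared a batch or a litter. Of 2241 values of named genes under these settings 0 changed sign. For genes without overlap no other outcome was possible when mice were left out. Another minimum, no variance trend and the replicate block leave the difference of the means as it is. Many of the genes were also named for a small p in these data, so this count does not measure their stability. Of 850 list medians 831 moved by less than the spread between mice, and 26 of 50 lists kept their sign throughout. Precision was limited by 4 mice a group and by rlog, which shrinks differences of weakly expressed genes. The cause of these shifts was not tested.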

Other observations

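Within-group spread was compared between the genotypes. The median SD over all genes was 0.081 in WT and 0.097 in *Fmr1* KO females, and 62.3% of genes had the larger SD in *Fmr1* KO females. The genes vary together and are not replicates. On the first principal component *Fmr1* KO females 1 and 3 (-12.9 and -19.6) lay far from females 2 and 4 (7.71 and 3.32). The part of single mice in this difference of spread was not tested. Among genes whose groups did not overlap, 70.7% of those lower and 68.1% of those higher in *Fmr1* KO females differed in the same direction in the males, against 63.0% of all tested genes.

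By chromosome, the share of genes lower at an unadjusted p under 0.05 was highest on chromosome 17 (12.2% lower and 4.44% higher of 743), and chromosome 1 was among those with the reverse balance (5.15% lower and 8.32% higher of 913). The median transcript GC content was 52.9% on chromosome 17 and 47.9% on chromosome 1, and its part in these shares was not tested. With genes in 5 classes of near equal size by transcript length, 3.44% of the shortest class and 8.80% of the longest were higher, while 7.20% and 7.97% were lower.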
